A study of Arabidopsis thaliana with 4 samples.

Results

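The genes described here encode the cytosolic large-subunit ribosomal proteins L23 to L40 of Arabidopsis thaliana. They were chosen by function from a list of 51 loci, and not by any measured value. The list covers 21 proteins, each encoded by a small family of paralogs. Of 23498 loci in all, with an index in at least 1 library, 50 were on this list, and 49 of these had an index in all 4 libraries. The 2 exceptions were AT1G07070 (L35a), which had an index in 3 libraries, and AT3G10950 (L37a), which had none in any. All 51 loci were found in RefSeq's table, where 10 carried a ribosomal or ubiquitin extension name. The protein of every locus follows the usual Arabidopsis naming of ribosomal proteins. For AT3G18740, counted here under L30, RefSeq gives the symbol RLK902, that of a receptor-like kinase.

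Polyadenylated RNA was sequenced with a method named for the mapping of uncapped transcripts (GMUCT), which reads the front end of RNAs that carry no cap. The abh1 group held 2 libraries from plants that lack the function of ABH1, the large subunit of the nuclear cap-binding complex. The Col-0_CHX group held 2 libraries whose labels give the wild type. Both groups have the Col-0 background and are labelled as immature inflorescence, from buds of plants about 4 weeks old grown with 16 h of light and 8 h of dark. The labels call all plants untreated and do not spell out CHX, so the genotype and whatever CHX stands for differ together and cannot be told apart. The titles of the mutant libraries carry unlike numbers, and no source used here says whether these are alleles or replicates. The labels do not say whether replicates are separate plants, and the p-values cover no more than the spread of these 4 libraries, part of which may be technical. For each gene and library the authors deposited a co-translational RNA decay index, a ratio without a unit. No source used here gives its formula, and values are reported without a meaning for 1 or for a higher or lower index.

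Ribosomal proteins of the large subunit surround the catalytic RNA, the tunnel through which the new peptide leaves, and the face that meets the small subunit. In plants each protein has several gene copies, and a ribosome takes up the product of 1 of them. Their messenger RNAs are abundant and mostly short, and are translated by many ribosomes in dividing tissue such as the flower bud. RNA decay can follow the last ribosome along a messenger after the cap is lost, which is called co-translational decay. These statements are background and not results of these libraries.

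The tables listed 22495 and 22492 loci for abh1, and 18321 and 18215 for Col-0_CHX. Over the 17049 loci listed in all 4, the median index was 1.15 and 1.14 in abh1, compared with 1.37 and 1.29 in Col-0_CHX, a shift of -0.22 on the log2 scale. The depth behind each index is unknown. As a sign of coarse values, an index was called repeated where over 10 loci of the library had exactly the same value. Among the 49 ribosomal genes, 0 and 1 had a repeated index in the abh1 libraries, and 10 and 15 in the Col-0_CHX libraries. Those counts are 0% and 2.04% of the genes in abh1 and 20.4% and 30.6% in Col-0_CHX, below the shares of all loci, 16.3% and 18.5% in abh1 and 40.4% and 39.8% in Col-0_CHX. For the targeted gene ABH1 (AT2G13540) the index was 1.01 and 1.19 in abh1, compared with 1.86 and 1.62 in Col-0_CHX, and a ratio of this kind does not check the genotype. Of 9 genes that mark the inflorescence (AP1, AP3, PI, AG, SEP1, SEP2, SEP3, LFY and STK), 9 were listed for both replicates of abh1 and 0 for both replicates of Col-0_CHX. AG was listed in the first Col-0_CHX library and SEP1 in the second, and the other 7 in neither. Both anther markers, AMS and GRP17, were listed in both abh1 tables and missed in both Col-0_CHX tables, while all 6 leaf markers were listed in every library. The defining markers of the labelled tissue were thus mostly absent from the Col-0_CHX tables. Their part in the differences given here was not tested, and in bulk samples fewer cells of a type and less RNA per cell cannot be told apart.

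Fewer of the genes lay above the median index of all loci than below it in each library. The median over the 49 genes was 1.09 and 1.06 in abh1, compared with 1.24 and 1.14 in Col-0_CHX. As log2 values these medians were below those of all loci by 0.073 and 0.10 in abh1, and by 0.15 and 0.19 in Col-0_CHX. The index was above 1 for 38 and 41 of the 49 genes in abh1, and for 39 and 35 in Col-0_CHX, where 77.3% and 77.0% of all loci were above 1 in abh1 and 84.0% and 80.2% in Col-0_CHX. It was above 1 in all 4 libraries for 26 genes, near the 50.4% of all loci, and below 1 in all 4 for 3, where 1.40% of all loci were. The genes with a level above the library's median over all loci numbered 17 and 16 in abh1, and 19 and 12 in Col-0_CHX. For the large-subunit proteins L3 to L22 (57 loci) the medians were 1.16 and 1.14 in abh1, compared with 1.21 and 1.19 in Col-0_CHX. For the small subunit (81 loci) they were 1.14 and 1.13 in abh1, compared with 1.24 and 1.21 in Col-0_CHX. The medians of the 3 lists were not tested against each other.

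**Figure D1:**
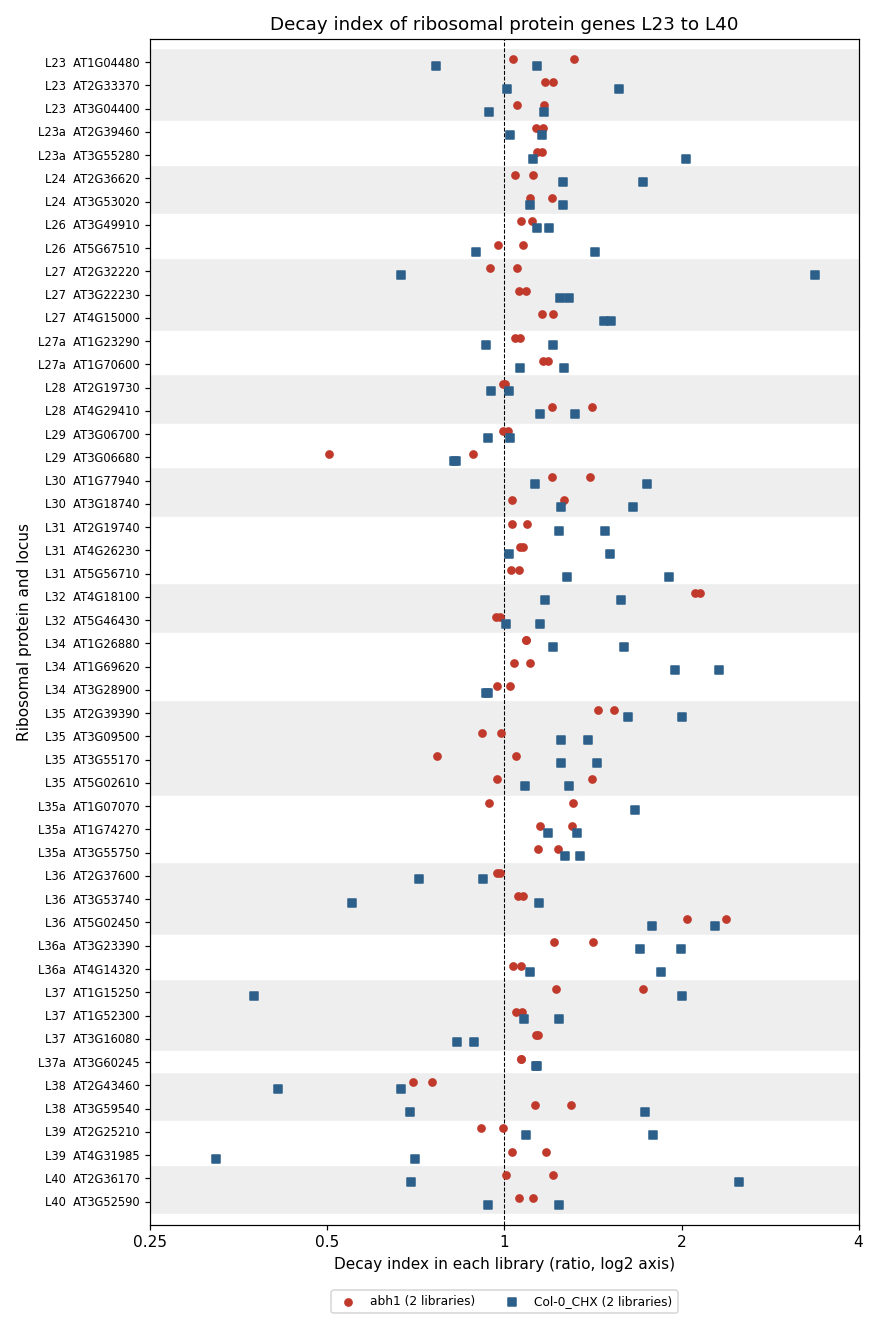
Decay index (horizontal log2 axis, a ratio without a unit) of the 50 listed loci in each library, grouped by protein. Circles are the 2 abh1 libraries and squares the 2 Col-0_CHX libraries, and the dashed line marks 1. AT5G02450 (L36) and AT4G18100 (L32) have the highest abh1 values, and for 41 of the 49 genes the squares lie further apart than the circles.

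The abh1 libraries placed a pair of genes well above the others. AT5G02450, of the L36 family, had an index of 2.38 and 2.05 in abh1, compared with 1.78 and 2.28 in Col-0_CHX. AT4G18100, of the L32 family, had 2.10 and 2.15 in abh1, compared with 1.58 and 1.17 in Col-0_CHX. In abh1 each exceeded 97.7% or more of all loci in both libraries. AT5G02450 kept a high rank in Col-0_CHX (76.6% and 91.5% of loci lay below it), and its 2 groups overlap. At the other end stood AT2G43460 (L38), a protein known in mouse for its part in the translation of patterning genes. Its index was 0.700 and 0.754 in abh1, compared with 0.412 and 0.667 in Col-0_CHX, so it was below 1 in every library. The other genes below 1 in every library were AT3G06680 (L29), with 0.503 and 0.884 in abh1, compared with 0.822 and 0.829 in Col-0_CHX, and AT2G37600 (L36), with 0.973 and 0.983 in abh1, compared with 0.921 and 0.717 in Col-0_CHX. The L36 family thus held both a gene among the highest and one among the lowest.

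The question of this comparison is whether the index of a gene is unlike in abh1 and Col-0_CHX. Over 17049 loci, limma's moderated test with Benjamini-Hochberg adjustment called 0 (0%), and 0 of the 49 ribosomal genes. At an unadjusted p under 0.05 it found 4 of the 49 genes, 2 lower and 2 higher in abh1, where 20.1% of all loci passed, 17.2% lower and 2.84% higher in abh1. The mean index was lower in abh1 for 31 and higher for 18 of the 49 genes, where 72.2% of all loci were lower. Both abh1 libraries lay below both Col-0_CHX libraries for 18 genes, beside 45.2% of all loci, and above both for 6 genes, beside 10.7% of all loci. The share of the genes on the lower side (36.7%) was under the background and that on the higher side (12.2%) near it. The median difference of the 49 genes was -0.095 on the log2 scale, against -0.23 over all loci. Without the first Col-0_CHX library these were -0.046 for the genes and -0.19 for all loci, and without the second they were -0.20 and -0.26. With each library centred on its median, the median of the genes was 0.13, with 18 genes lower and 31 higher, and with quantile normalization it was 0.093. The sign of the group as a whole therefore depends on whether the shift of the libraries is left in. Relative to that shift, the 8 genes named below for the largest separate differences on the lower side stood at -0.77 to -0.22, and the 6 on the higher side at 0.32 to 1.43. The L3 to L22 list had a median difference of -0.0022 and the small subunit list one of -0.13, from the same 4 libraries.

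**Figure D2:**
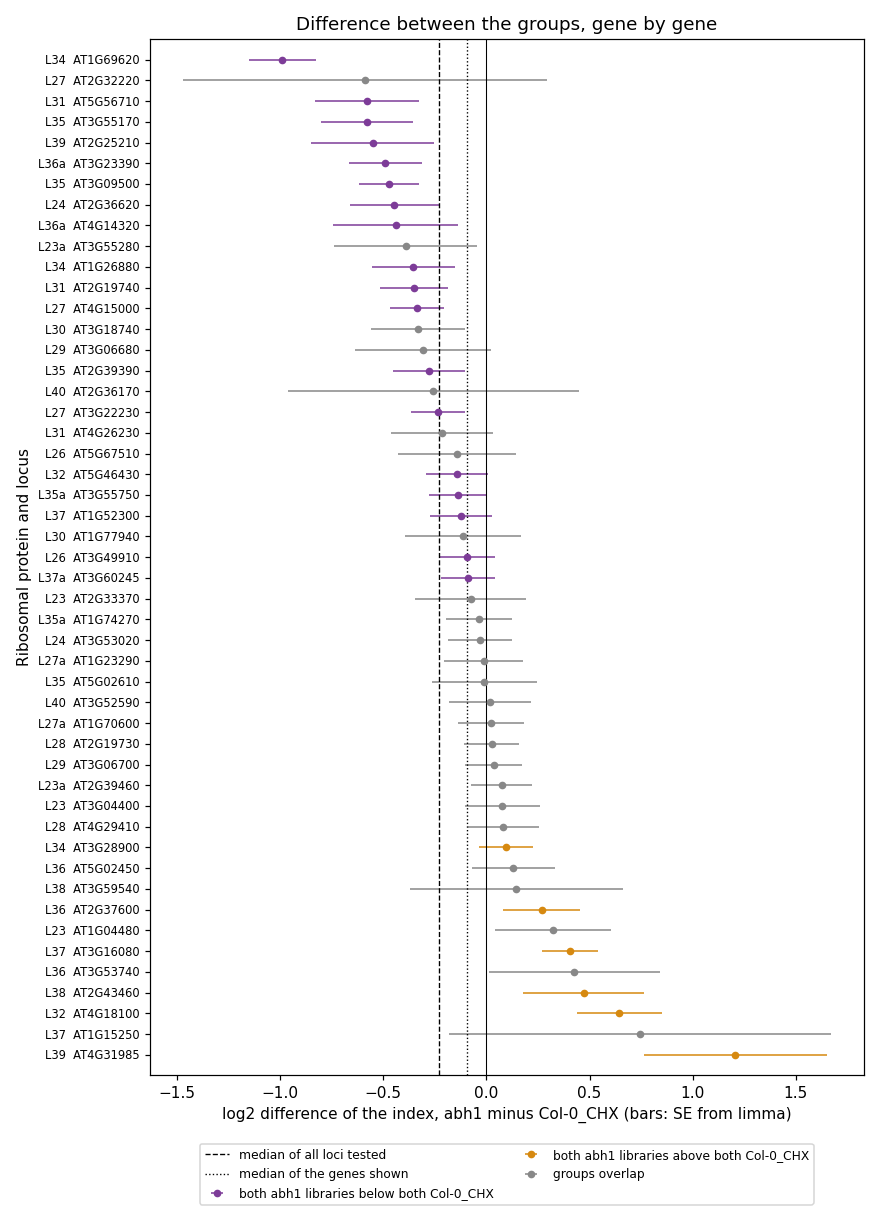
Log2 difference of the index, abh1 minus Col-0_CHX (horizontal axis), for the 49 genes with an index in all 4 libraries, ordered by size, with the standard error from limma as bars. Colours show whether the 2 abh1 libraries lie below, above or among the Col-0_CHX libraries; RPL34 (AT1G69620) stands lowest at -0.99 and AT4G31985 (L39) highest at 1.21.

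RPL34 (AT1G69620), of the L34 family, differed most in the downward direction. Its index was 1.10 and 1.04 in abh1, compared with 2.32 and 1.95 in Col-0_CHX, a difference of -0.99 ± 0.16 (SE) on the log2 scale. Both abh1 values lay below both Col-0_CHX values by a wide margin, and no value was a repeated one. Over all loci the limma adjusted p was 0.167, and over the alternatives that change 1 choice it ranged from 0.0383 to 0.707. Over the 6572 loci without a repeated value in any library, where 8.63% of loci were called, 8.03% lower and 0.593% higher in abh1, RPL34 was the 1 gene called among the 31 ribosomal genes tested, with a limma adjusted p of 0.0383. With each library centred in that fit the limma adjusted p was 0.0692, and with the replicate number as a block it was 0.0486. With a limit of 20 loci for repeated values it was 0.0617. With abh1 replicate 1 or 2 left out, the log2 difference of RPL34 was -1.04 and -0.95. With Col-0_CHX replicate 1 or 2 left out, it was -0.87 and -1.12. Both other L34 genes had smaller differences, which were not tested against that of RPL34. AT1G26880 had 1.09 and 1.09 in abh1, compared with 1.60 and 1.21 in Col-0_CHX, and AT3G28900 had 0.972 and 1.02 in abh1, compared with 0.936 and 0.929 in Col-0_CHX. For AT3G28900 both abh1 values lay above both Col-0_CHX values, with a difference of 0.095 ± 0.13 (SE) on the log2 scale and a limma adjusted p of 0.721. That difference was 0.060 without the second abh1 library.

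Several proteins line the peptide tunnel or ring its exit, where targeting factors and chaperones meet the new chain. L39 lies in the wall of the tunnel, and its 2 genes on the list lay on opposite sides of Col-0_CHX. AT4G31985 had an index of 1.18 and 1.03 in abh1, compared with 0.704 and 0.324 in Col-0_CHX. Its difference of 1.21 ± 0.44 (SE) on the log2 scale was the largest upward one among the 49 genes, with a limma adjusted p of 0.265. The Col-0_CHX values lay further apart than the nearest values of the 2 groups, and the error is wide. AT2G25210 had 0.993 and 0.911 in abh1, compared with 1.09 and 1.79 in Col-0_CHX, a difference of -0.55 ± 0.30 (SE) on the log2 scale with a limma adjusted p of 0.386. Here both abh1 values lay below both Col-0_CHX values. Without the second Col-0_CHX library the log2 difference of AT4G31985 was 0.65. That of AT2G25210 was -0.91 without the first and -0.20 without the second.

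L31 stands at the tunnel exit. AT5G56710 had an index of 1.02 and 1.06 in abh1, compared with 1.90 and 1.28 in Col-0_CHX, a difference of -0.58 ± 0.25 (SE) on the log2 scale (limma adjusted p = 0.309). Without the first Col-0_CHX library that difference was -0.29. The paralog AT2G19740 had 1.03 and 1.09 in abh1, compared with 1.48 and 1.24 in Col-0_CHX. For both genes the abh1 libraries lay below the Col-0_CHX libraries without overlap. The third copy, AT4G26230, had 1.07 and 1.06 in abh1, compared with 1.51 and 1.02 in Col-0_CHX, where the groups overlap. AT2G19740 lies next to AT2G19730, an L28 gene, with 0 protein-coding genes between them in RefSeq's table. AT2G19730 stayed near 1 throughout, with 0.995 and 1.00 in abh1, compared with 0.948 and 1.02 in Col-0_CHX.

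L35, also at the exit, is the protein with the most copies here. AT3G09500 had an index of 0.985 and 0.914 in abh1, compared with 1.25 and 1.39 in Col-0_CHX, a difference of -0.47 ± 0.15 (SE) on the log2 scale (limma adjusted p = 0.229). AT3G55170 had 1.05 and 0.769 in abh1, compared with 1.25 and 1.44 in Col-0_CHX, a difference of -0.58 ± 0.22 (SE) on the log2 scale (limma adjusted p = 0.278). AT2G39390, the highest L35 gene, had 1.44 and 1.53 in abh1, compared with 2.00 and 1.62 in Col-0_CHX. In these 3 the abh1 values lay below the Col-0_CHX values without overlap. The fourth, AT5G02610, had 0.973 and 1.41 in abh1, compared with 1.08 and 1.29 in Col-0_CHX, with overlap. Each of the 4 had a repeated index in at least 1 Col-0_CHX library. Without the second abh1 library the log2 difference of AT3G55170 was -0.36.

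L23a forms the docking site of the signal recognition particle at the exit, and L26 is its neighbour there. RPL23AA (AT2G39460) had an index of 1.16 and 1.13 in abh1, compared with 1.02 and 1.16 in Col-0_CHX. RPL23AB (AT3G55280) had 1.16 and 1.14 in abh1, compared with 2.03 and 1.12 in Col-0_CHX, where the first Col-0_CHX library alone was high. Of the L26 genes, AT3G49910 had 1.11 and 1.07 in abh1, compared with 1.14 and 1.19 in Col-0_CHX, and AT5G67510 had 1.07 and 0.973 in abh1, compared with 1.42 and 0.895 in Col-0_CHX. Among these 4 genes the groups were separate for AT3G49910 alone, by a narrow margin. Its mean was lower in abh1, and higher with each library centred on its median.

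The proteins of the face that meets the small subunit include L23, which binds the anti-association factor of the subunits, and L24, which bridges them. RPL24A (AT2G36620) had an index of 1.12 and 1.04 in abh1, compared with 1.72 and 1.26 in Col-0_CHX, a difference of -0.45 ± 0.22 (SE) on the log2 scale (limma adjusted p = 0.347). It was -0.22 without the first Col-0_CHX library and -0.67 without the second. Its paralog STV1 (AT3G53020), which in Arabidopsis aids renewed initiation after upstream reading frames, had 1.20 and 1.10 in abh1, compared with 1.10 and 1.26 in Col-0_CHX. The groups were separate for RPL24A and overlapped for STV1. In the L23 family, AT1G04480 had 1.04 and 1.31 in abh1, compared with 1.14 and 0.764 in Col-0_CHX, and AT2G33370 had 1.17 and 1.21 in abh1, compared with 1.57 and 1.01 in Col-0_CHX. The third, emb2171 (AT3G04400), whose symbol stands for embryo defective, had 1.05 and 1.17 in abh1, compared with 1.17 and 0.943 in Col-0_CHX. The groups overlap for all 3 L23 genes. Of L30, AT1G77940 had 1.40 and 1.20 in abh1, compared with 1.75 and 1.12 in Col-0_CHX. AT3G18740 had 1.26 and 1.03 in abh1, compared with 1.65 and 1.25 in Col-0_CHX, and the groups overlapped for both L30 genes on the list.

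L36a lies by the site where spent transfer RNA leaves, and both of its genes lay below Col-0_CHX in abh1. AT3G23390 had an index of 1.22 and 1.41 in abh1, compared with 2.00 and 1.70 in Col-0_CHX, a difference of -0.49 ± 0.18 (SE) on the log2 scale (limma adjusted p = 0.258). AT4G14320, known as API2 for the pointed leaves of its mutant, had 1.07 and 1.04 in abh1, compared with 1.84 and 1.10 in Col-0_CHX, a difference of -0.44 ± 0.30 (SE) on the log2 scale (limma adjusted p = 0.479). The groups were separate for both genes, and neither passed the test. For AT4G14320 the log2 difference was -0.071 without the first Col-0_CHX library and -0.81 without the second. With each library centred it was -0.22 for AT4G14320 and -0.27 for AT3G23390. With quantile normalization it was -0.23 for AT4G14320 and -0.050 for AT3G23390.

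L37, L37a and L40, like L36a, bind zinc. The L37 gene AT3G16080 had an index of 1.14 and 1.13 in abh1, compared with 0.829 and 0.889 in Col-0_CHX, a difference of 0.40 ± 0.14 (SE) on the log2 scale (limma adjusted p = 0.245). Both abh1 values were above 1 and both Col-0_CHX values below it. Its paralog AT1G52300 had 1.07 and 1.05 in abh1, compared with 1.24 and 1.08 in Col-0_CHX, and lay on the lower side in abh1. With each library centred on its median, AT1G52300 lay on the higher side. AT1G15250, the third L37 gene, had 1.72 and 1.23 in abh1, compared with 2.00 and 0.375 in Col-0_CHX, so the Col-0_CHX libraries held both a high and a very low value. AT3G60245 (L37a) had 1.07 and 1.07 in abh1, compared with 1.13 and 1.14 in Col-0_CHX, and its replicates were close in both groups. L40 is made as a fusion to ubiquitin. UBQ1 (AT3G52590) had 1.12 and 1.06 in abh1, compared with 1.24 and 0.939 in Col-0_CHX, and AT2G36170 had 1.21 and 1.01 in abh1, compared with 0.694 and 2.50 in Col-0_CHX, both with overlap.

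Of the remaining proteins, L32 and L38 had genes above Col-0_CHX in abh1. AT4G18100 (L32), given above, had a difference of 0.64 ± 0.21 (SE) on the log2 scale (limma adjusted p = 0.235), with no repeated value. Its paralog AT5G46430 had 0.966 and 0.983 in abh1, compared with 1.15 and 1.01 in Col-0_CHX, on the lower side in abh1. That side reversed with each library centred on its median. AT2G43460 (L38) had a difference of 0.47 ± 0.29 (SE) on the log2 scale (limma adjusted p = 0.437). AT3G59540, the other L38 gene, had 1.13 and 1.295 in abh1, compared with 0.690 and 1.73 in Col-0_CHX, with overlap. In the L36 family AT2G37600 had a difference of 0.27 ± 0.19 (SE) on the log2 scale (limma adjusted p = 0.483). AT3G53740, of the same family, had 1.08 and 1.06 in abh1, compared with 1.14 and 0.551 in Col-0_CHX, where the second Col-0_CHX library was low. The log2 differences of AT2G43460 and AT2G37600 moved by over 1.5 times when either Col-0_CHX library was left out. For AT2G43460 the value was 0.12 without the first and 0.82 without the second, and for AT2G37600 it was 0.45 without the first and 0.086 without the second.

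The L27 gene AT4G15000 had an index of 1.21 and 1.16 in abh1, compared with 1.52 and 1.47 in Col-0_CHX, and AT3G22230 had 1.09 and 1.06 in abh1, compared with 1.24 and 1.28 in Col-0_CHX. The replicates of both genes were close, and abh1 lay below Col-0_CHX without overlap. With each library centred on its median, both means stayed lower in abh1, that of AT3G22230 by very little. AT2G32220, the third, had 0.946 and 1.05 in abh1, compared with 3.38 and 0.667 in Col-0_CHX, and both Col-0_CHX values were repeated ones. The gene dose of L27a affects leaf and embryo development in Arabidopsis. RPL27AB (AT1G23290) had 1.04 and 1.06 in abh1, compared with 1.21 and 0.929 in Col-0_CHX, and AT1G70600 had 1.17 and 1.19 in abh1, compared with 1.26 and 1.06 in Col-0_CHX. In both L27a genes the abh1 values lay between those of Col-0_CHX. For L35a, the loss of which causes an inherited anaemia in humans, AT1G74270 had 1.15 and 1.304 in abh1, compared with 1.19 and 1.33 in Col-0_CHX, and AT3G55750 had 1.14 and 1.23 in abh1, compared with 1.34 and 1.27 in Col-0_CHX. The groups were separate for AT3G55750 alone, whose mean was lower in abh1, and higher with each library centred on its median. AT1G07070 (L35a) had 0.940 and 1.31 in abh1, and 1.67 in the first Col-0_CHX library with no value in the second.

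Paralogs of one protein were compared within each library. For the 20 proteins with at least 2 genes in all 4 libraries, the gap between the highest and the lowest paralog by mean log2 index was taken within each library, where the shift of whole libraries cancels. The order of the paralogs was set by the same 4 libraries, so the gaps are a description. The gap had one sign in all 4 libraries for 10 of the 20 proteins. Over all 37 pairs of paralogs within a protein, the order was the same in both abh1 libraries for 28, in both Col-0_CHX libraries for 25, and in all 4 for 15. Reads were 50 nt long, and no source used here says how reads shared by near-identical paralogs were assigned, so single paralogs are uncertain.

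**Figure D3:**
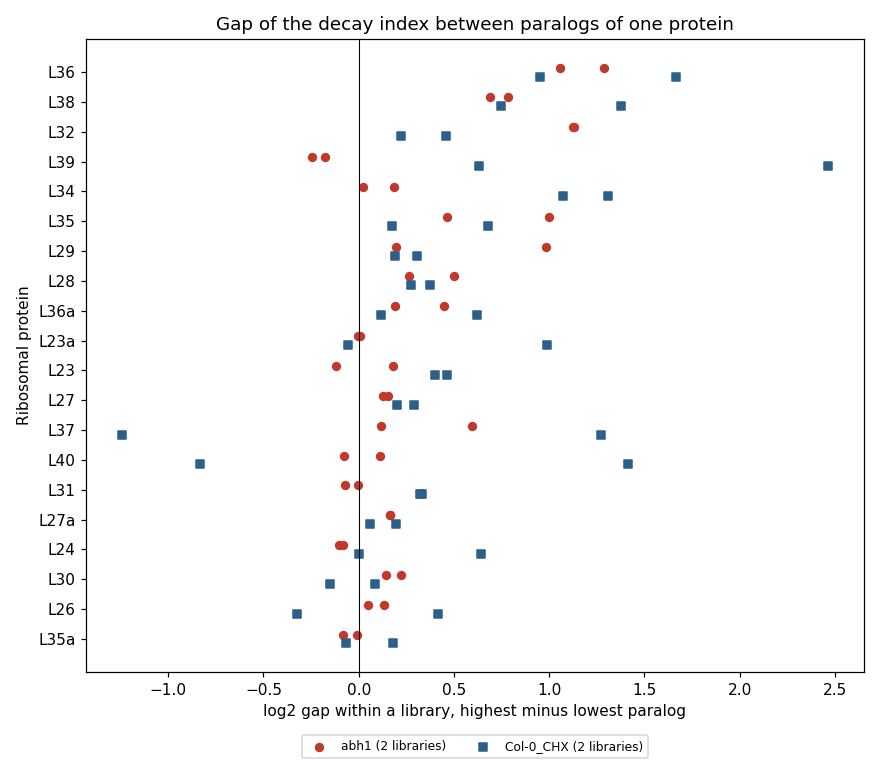
Log2 gap of the index between the highest and the lowest paralog (horizontal axis) for 20 proteins, ordered by the mean gap. Circles are the 2 abh1 libraries and squares the 2 Col-0_CHX libraries; L36 and L38 have all points above 0.6, while L32 has its circles above its squares and L34 its squares above its circles.

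The widest gap of one sign was that of L36, AT5G02450 minus AT2G37600, with log2 values of 1.29 and 1.06 in abh1, compared with 0.95 and 1.67 in Col-0_CHX. L38 followed, AT3G59540 minus AT2G43460, with 0.69 and 0.78 in abh1, compared with 0.75 and 1.38 in Col-0_CHX. In both proteins the gaps of the groups overlap. For L35, AT2G39390 minus AT3G55170, it was 0.46 and 1.00 in abh1, compared with 0.68 and 0.18 in Col-0_CHX, and for L29, AT3G06700 minus AT3G06680, it was 0.98 and 0.20 in abh1, compared with 0.19 and 0.30 in Col-0_CHX. The L29 genes lie with 1 protein-coding gene between them. AT3G06700 had an index of 0.993 and 1.01 in abh1, compared with 0.938 and 1.02 in Col-0_CHX, so the wide L29 gap of the first abh1 library came with the low index of AT3G06680 there.

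The gaps did not overlap between the groups for 8 of the 20 proteins, with a larger gap in abh1 for 2 and a smaller one for 6. If the group labels were exchangeable, 2 libraries would separate from 2 in a share of 0.333. The count of 8 of 20 is near that share. The order of the paralogs was set by the mean of all 4 libraries, where the wider spread of Col-0_CHX weighs more. That choice favours larger gaps in Col-0_CHX, so no conclusion is drawn from the split of 2 and 6. Among these proteins, L32, L39 and L34 had the widest mean gaps. In L32, AT4G18100 exceeded AT5G46430 by 1.12 and 1.13 in abh1, compared with 0.46 and 0.22 in Col-0_CHX. In L34, RPL34 exceeded AT3G28900 by 0.18 and 0.023 in abh1, compared with 1.31 and 1.07 in Col-0_CHX. The L39 gap, AT2G25210 minus AT4G31985, had opposite signs in the groups, with -0.25 and -0.18 in abh1, compared with 0.63 and 2.46 in Col-0_CHX. With 2 libraries against 2, an exact two-sided permutation test of such a gap cannot go below p = 0.333, so these separations were not tested further. The narrowest mean gaps belonged to L35a, L26, L30 and L24. L35a had -0.0098 and -0.082 in abh1, compared with 0.18 and -0.066 in Col-0_CHX, and L26 had 0.051 and 0.13 in abh1, compared with -0.33 and 0.41 in Col-0_CHX. L30 had 0.14 and 0.22 in abh1, compared with 0.083 and -0.15 in Col-0_CHX, and L24 had -0.11 and -0.082 in abh1, compared with 0.64 and 0.0040 in Col-0_CHX. In these 4 proteins the order of the paralogs differed between libraries. L28, whose AT4G29410 had an index of 1.41 and 1.20 in abh1, compared with 1.15 and 1.32 in Col-0_CHX, kept AT4G29410 above AT2G19730 in all 4 libraries.

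The replicates of abh1 were closer than those of Col-0_CHX. The median absolute log2 difference between replicates over the 49 genes was 0.089 in abh1, compared with 0.31 in Col-0_CHX, where over all loci it was 0.14 in abh1 and 0.32 in Col-0_CHX. The replicates differed by more than 1.5-fold for 1 gene in abh1 and for 13 genes in Col-0_CHX, where 9.58% of all loci did so in abh1 and 29.9% in Col-0_CHX. The gene in abh1 was AT3G06680 (L29). The widest splits in Col-0_CHX, AT1G15250 (L37), AT2G32220 (L27), AT2G36170 (L40) and AT3G59540 (L38), each came with a repeated index in at least 1 Col-0_CHX library. These 4 genes are also the ones with a standard error of the difference over 0.5. The next widest splits in Col-0_CHX, AT4G31985 (L39) and AT3G53740 (L36), came without a repeated index in any library. Across the 49 genes the log2 indices of the 2 replicates had Pearson's r = 0.76 (Spearman's rho = 0.62) in abh1, and r = 0.17 (rho = 0.23) in Col-0_CHX. Across all loci r was 0.43 in abh1 and 0.24 in Col-0_CHX. These are descriptions across genes that share 4 libraries, and genes are not independent replicates. The mean log2 indices of abh1 and Col-0_CHX had r = 0.43 across the 49 genes, against 0.17 across all loci. The SD of the log2 index across the 49 genes was 0.33 and 0.27 in abh1, compared with 0.53 and 0.55 in Col-0_CHX.

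**Figure D4:**
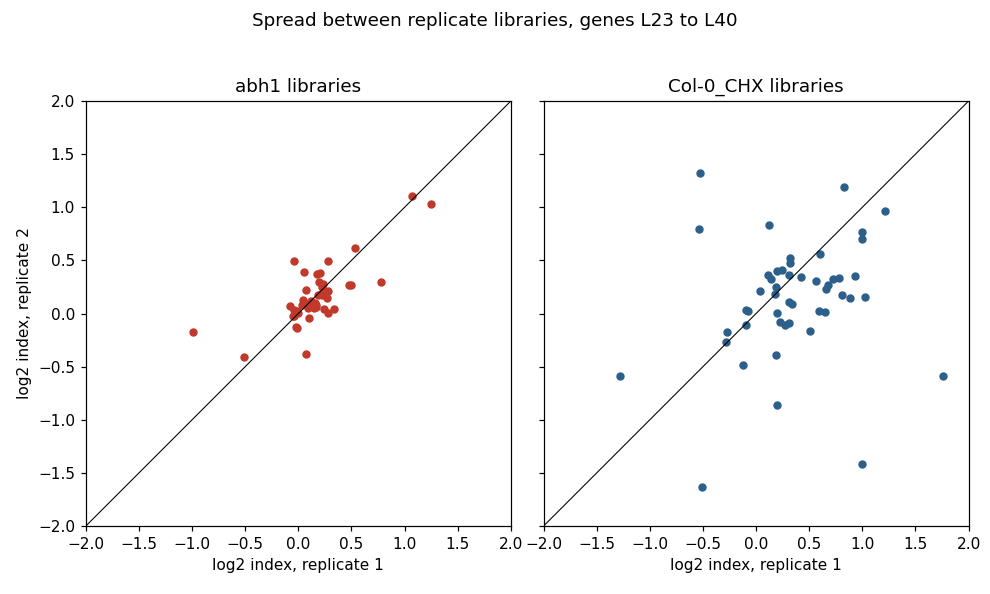
Log2 index of replicate 1 (horizontal axis) against replicate 2 (vertical axis) for the 49 genes, in the abh1 libraries on the left and the Col-0_CHX libraries on the right; the line marks equal values. Points lie close to the line in abh1 and spread widely in Col-0_CHX.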

How the data were processed

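PolyA-selected RNA was made into strand-specific GMUCT libraries with 50 nt reads, per the labels. The submitters' processing notes name the tools cutadapt 1.4.2 and STAR 2.4.0 and the build TAIR10. The decay index of each gene model is a ratio the authors deposited in a file per library; that it is linear was read from its values, all of them above 0. No source used here says how it was calculated, from how many reads or on which annotation, and no counting interval was made. Each locus had 1 model per file. Replicate tables held identical values at 0.737% (abh1) and 0.736% (Col-0_CHX) of the loci they share, and were counted as separate libraries.

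Members, lists, tests and the rule for named genes were chosen with earlier results of these data known. By that rule every member could be named with its values. Differences were printed for called members and for up to 8 per direction with the largest difference among those whose groups do not overlap, which gave 8 lower and 6 higher. Gaps were printed for the 6 widest of one sign and the 4 narrowest; the others named were picked for contrast after their values were seen. Log2 indices without a pseudocount were fitted with limma 3.58.1 in R 4.3.3 (lmFit, eBayes, no covariate) over the 17049 loci in all 4 libraries, with an adjusted p threshold of 0.05. Simulated data with a common spread within each group, and no repeated values, checked the size of planted differences alone. They were no check of the calls. Python 3.11.15, numpy 2.4.6 and pandas 2.3.3 did the rest, and matplotlib 3.10.9 the figures. RefSeq's table, assembly TAIR10.1, was used for names and neighbours only. Sequences were not used here, and coordinates served only to put the genes in order for the neighbours. Alternatives changed the loci tested, scale, normalization, variance model, replicate block, libraries and threshold.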

Additional observations from a re-analysis of the deposited data

How the results depend on the processing

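With all loci tested, 0 ribosomal genes and 0 of all loci passed in the fit given and in all alternatives chosen at the start, a threshold of 0.1 in the fit given included, but for 1. The exception was the fit without repeated values, with 1 of 31 genes and 567 of 6572 loci, which tests fewer and less coarse loci. Pairs of choices added after seeing the data gave, without repeated values and without each library in turn, 0 to 10 genes and 0 to 1957 loci. Of these, leaving out either abh1 library gave 0 and 0, leaving out the first Col-0_CHX library 4 and 1137, and leaving out the second 10 and 1957. Such a fit takes the spread of the remaining pair for the single library. A limit of 20 loci for repeated values, and no repeated values with centring, gave 0 and 0. The median difference of the genes, -0.095, became 0.13 with centring and 0.093 with quantile normalization, both of which take out the shift of the libraries. Leaving out 1 library in turn gave -0.20 (without the second Col-0_CHX library) to -0.046. The number of genes lower in abh1, 31 of 49, was 20 of 31 without repeated values, 18 with centring and 20 with quantile normalization. The replicate block gave 0 genes and 0 loci over all loci, and 1 gene and 216 loci without repeated values. Deviations of libraries with the same number had r = -0.0043 over all loci, so the number is not taken to pair them. For the 14 genes whose differences are given, the direction was kept in each alternative run, 12 for 8 genes and 11 for the 6 with repeated values. These genes were picked for groups that do not overlap, so leaving out 1 library could not reverse it. A pseudocount keeps the order of values, and the loci tested, variance model and replicate block leave the difference as it is. Only centring and quantile normalization could have reversed the direction. RPL34 alone crossed the threshold, in the fit without repeated values. The depth is unknown, and repeated values in Col-0_CHX limit 18 of the 49 genes. The gap between paralogs had one sign for 10 to 12 of 20 proteins with each library left out. The pair and its order stayed set by all 4 libraries, so this count could not fall below 10.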
